A study of Mus musculus with 9 samples.

Results

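The subject here is a group of 10 genes that build or regulate the neuronal axon's cytoskeleton. They are the neurofilament subunits Nefl, Nefm and Nefh with their partner Ina, the neuronal tubulin Tubb3, the microtubule-binding protein Mapt, the stathmins Stmn1, Stmn2 and Stmn3, and Gap43. They were chosen by name and found in the gene table by their Ensembl identifier without its version number. All 10 were present, 1 row each, among 22255 gene identifiers. RNA had been sequenced from hippocampal synaptoneurosomes, a fraction of brain homogenate enriched in pinched-off synaptic terminals. Every animal was an Fmr1 KO mouse of the C57Bl/6J strain, a model of fragile X syndrome. One group had received AM6545 (n = 4, replicates A, B, C and E) and the other vehicle (n = 5, replicates A to E), given sub-chronically. AM6545 is a blocker of the cannabinoid receptor CB1 that enters the brain poorly. The dose, the length of treatment, the age of the mice and whether a sample pools animals are not given in the sources used here. No label says that samples of a group came from separate animals, so p-values measure the spread between these samples. No wild-type sample is analysed here, and AM6545 and vehicle animals share the Fmr1 KO genotype.

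Neurofilaments are the intermediate filaments of neurons. The light, medium and heavy subunits, encoded by Nefl, Nefm and Nefh, co-assemble with alpha-internexin, encoded by Ina, and set the calibre of large axons. Microtubules, built from tubulin, run alongside them as the rails of axonal transport. Tau, encoded by Mapt, binds and stabilises microtubules, whereas stathmins bind free tubulin and favour disassembly. Gap43 encodes a membrane protein of growth cones and presynaptic terminals that is abundant in growing axons and persists in plastic adult regions such as the hippocampus. Some mRNAs of this group are carried into axons and terminals, so they can be found in a synaptic fraction as well as in the cell body.

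Library totals ran from 17629017 estimated counts in vehicle A to 27263574 in vehicle B. Together the 10 genes took up between 0.290% and 0.395% of a library. Markers of pyramidal cells summed to between 1329 and 1749 CPM (counts scaled to a common library size, with TMM factors) and markers of dentate granule cells to between 268 and 338 CPM, with every marker of both lists counted in every sample. RNA of other cells was also present. Oligodendrocyte markers summed to between 10900 CPM in vehicle C and 22650 CPM in vehicle A, and choroid plexus markers to between 47.6 and 4329 CPM. In such a fraction, fewer cells or terminals of a type and less RNA in each of them cannot be told apart. Vehicle A stood apart from the other vehicle samples in several of the genes described here. It also had the highest share of mitochondrially encoded counts, 7.90% against 4.06% to 6.73% in the other samples.

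None of the 10 genes differed between AM6545 and vehicle samples past an adjusted p of 0.05. All 10 passed the filter on low counts, and 0 were called by edgeR's quasi-likelihood test, where 0% of the 14512 genes tested were called; DESeq2 also called 0. At an unadjusted p under 0.05 the members again gave 0, against 7.21% of all genes tested by edgeR (1047 genes). DESeq2, run without that filter on low counts, gave 0 members and 1160 genes at that level. For 0 of the 10 did the CPM ranges of the groups separate, against 1.45% of all genes tested. Nefl, Nefm, Nefh, Tubb3 and Mapt had higher means in AM6545 samples, Stmn1, Stmn2, Stmn3 and Gap43 had lower means, and Ina lay at 0.01 on the log2 scale, but none of these signs rests on a difference that passed. The differences, from -0.15 to 0.25, compare with a median absolute log2 fold change of 0.12 over all genes tested.

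Nefl (ENSMUSG00000022055.8, chromosome 14) encodes the light subunit, the obligatory core of the filament. After AM6545 its level was 1055 CPM in sample A, 1165 in B, 1115 in C and 834 in E. In vehicle it was 719 CPM in sample A, 978 in B, 988 in C, 961 in D and 984 in E. Samples A, B and C of the AM6545 group thus lay above every vehicle sample and AM6545 E lay below all but vehicle A, so that the groups overlapped. Mean levels were 1042 ± 146 CPM (SD, n = 4) with AM6545, 926 ± 116 CPM (SD, n = 5) with vehicle. This gave a log2 fold change of AM6545 over vehicle of 0.17 (SE 0.13; edgeR quasi-likelihood adjusted p = 0.717), a fold of 1.13 with a 95% interval of 0.925 to 1.37. The two-sided exact permutation test of the mean log2 level gave p = 0.286. The smallest p that test can give with these group sizes is 0.0159.

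Nefm (ENSMUSG00000022054.12, chromosome 14) encodes the medium subunit, whose long phosphorylated tail projects from the filament. Its level was 180 CPM in AM6545 A, 228 in B, 183 in C and 119 in E, against 106 in vehicle A, 167 in B, 157 in C, 166 in D and 150 in E. The pattern over samples repeated that of Nefl: AM6545 A, B and C above every vehicle sample, vehicle A the lowest of all and AM6545 E next to it. The largest difference of the 10 was that of Nefm, 0.25 on the log2 scale (SE 0.17, edgeR quasi-likelihood adjusted p = 0.687; exact permutation p = 0.333). The 95% interval of its fold, 0.926 to 1.53, covers no change. Over all genes tested, 7.61% had a higher log2 fold change.

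Nefh (ENSMUSG00000020396.9, chromosome 11) encodes the heavy subunit, typical of large myelinated axons and of parvalbumin interneurons. It was the scarcest of the group, at 50.0 CPM in AM6545 A, 56.0 in B, 42.6 in C and 35.04 in E, and at 32.4 in vehicle A, 42.1 in B, 42.9 in C, 40.5 in D and 40.5 in E. Here AM6545 A and B lay above the vehicle range while AM6545 C lay inside it. On the log2 scale the difference was 0.21 (SE 0.13, edgeR quasi-likelihood adjusted p = 0.674; exact permutation p = 0.206). The summed parvalbumin interneuron markers were at 161 to 179 CPM in AM6545 samples and 146 to 169 CPM in vehicle samples. Most of that sum was Kcnc1, at 97.3 to 113 and 80.4 to 99.7 CPM. Pvalb itself went the other way, at 14.9 to 20.3 CPM in AM6545 samples and 16.0 to 29.4 CPM in vehicle samples. Of the 5 markers 2 had an unadjusted p under 0.05, in opposite directions (Kcnc1 at 0.23 and Cox6a2 at -0.70 on the log2 scale), where 7.21% of all genes tested did. The part of these cells in the Nefh values was not tested.

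The counts of Nefl and Nefm are not fully separate. In the GENCODE M21 annotation the genes lie tail to tail on opposite strands, and 32.2% of the distinct 31-base words of the Nefl transcript recur, reversed, in transcripts of Nefm, and 18.8% of those of Nefm in Nefl. The strand setting of the counting is not given in the sources used here, and without it reads from that stretch cannot be told apart. Nefh shared no 31-base word with another gene.

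**Figure D1:**
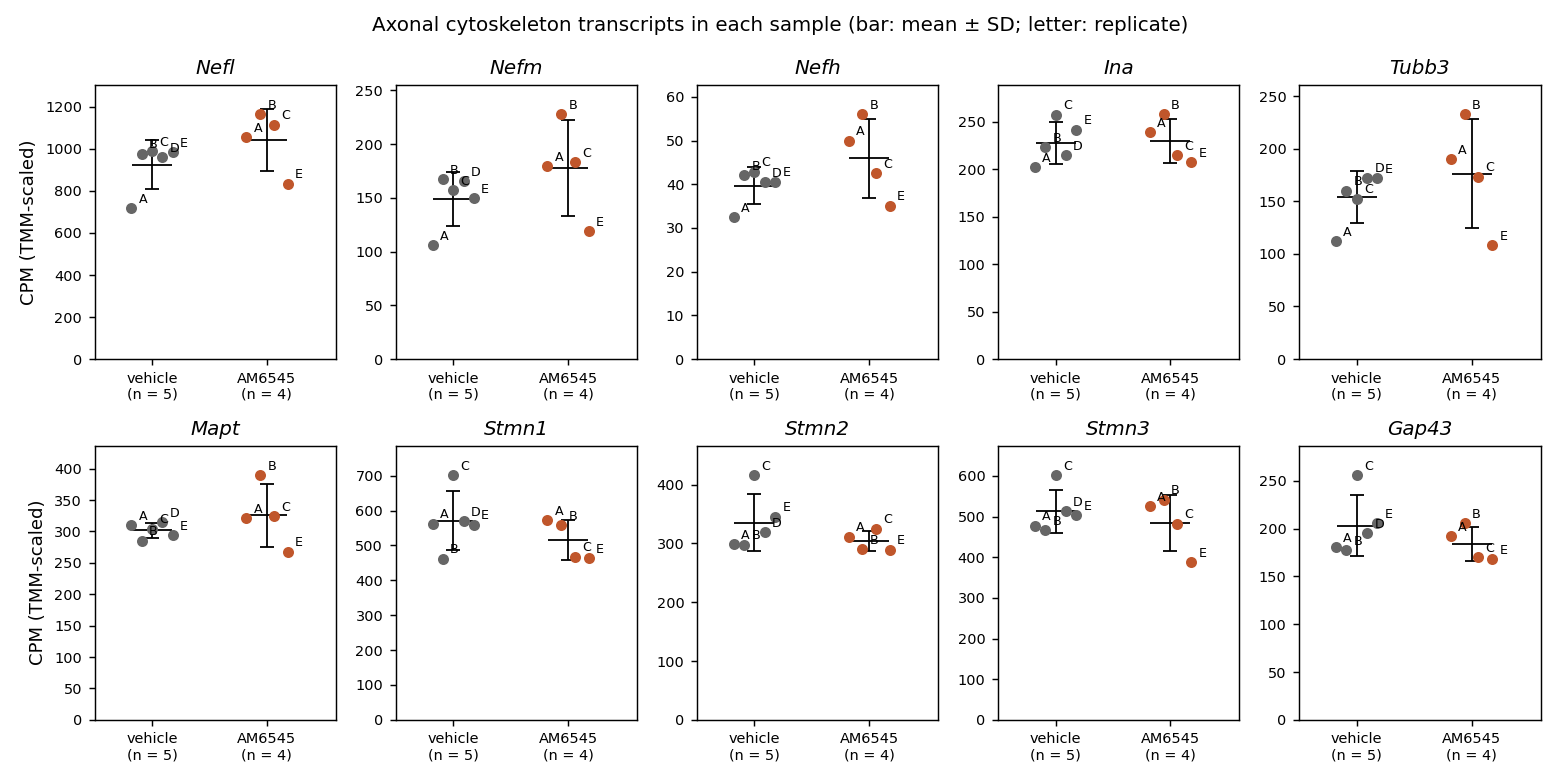
CPM (TMM-scaled, y axis from 0) of each of the 10 genes in the 5 vehicle and 4 AM6545 samples (x axis), with replicate letters beside the points and bars for mean ± SD. Vehicle A and AM6545 E sit lowest for Nefm and Tubb3, vehicle C sits highest for the stathmins and Gap43, and the groups overlap for every gene.

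Ina (ENSMUSG00000034336.4, chromosome 19) encodes alpha-internexin, the subunit that joins the triplet in central neurons. It averaged 230 ± 23.3 CPM with AM6545 (SD, n = 4), against 228 ± 21.9 CPM with vehicle (SD, n = 5). It had the narrowest range of the group, from 202 CPM in vehicle A to 258 CPM in AM6545 B, a span of 1.28-fold. With a difference of 0.01 on the log2 scale (SE 0.10, edgeR quasi-likelihood adjusted p = 0.979), its fold had a 95% interval of 0.864 to 1.18. Its transcript shares 13.3% of its 31-base words with Nt5c2 on the opposite strand.

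Tubb3 (ENSMUSG00000062380.5, chromosome 8) encodes class III beta-tubulin, the tubulin isotype used as a marker of neurons. It was at 190 CPM in AM6545 A, 233 in B, 174 in C and 108 in E, and at 112 CPM in vehicle A, 160 in B, 153 in C, 172 in D and 172 in E. Its samples thus spread 2.15-fold, as widely as those of Nefm, with the same samples low and AM6545 B the highest of both genes. The group means of 176 ± 51.7 CPM (SD, n = 4) and 154 ± 24.8 CPM (SD, n = 5) differed by less than the spread between AM6545 samples. On the log2 scale Tubb3 differed by 0.20 (SE 0.18; edgeR quasi-likelihood adjusted p = 0.758; exact permutation p = 0.492). Of its 31-base words, 3.21% recur in transcripts of other genes, mostly other tubulins, so a small part of its count is uncertain.

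Tubb3 and Ina, the gene with the widest span beside Nefm and the gene with the narrowest, are shown by their promoters, 250 bases before to 50 bases after the transcription start, from RefSeq (GRCm38.p6). The table of promoters used here held 3 of the 10 genes. Tubb3 lies at chr8:123411303-123411602 and Ina at chr19:47014431-47014730, each on the plus strand, and sequences run 5′ to 3′. Capitals mark matches on either strand to TATAA, the core of the TATA box, or to CCGCCC, the core of the GC box.

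Tubb3: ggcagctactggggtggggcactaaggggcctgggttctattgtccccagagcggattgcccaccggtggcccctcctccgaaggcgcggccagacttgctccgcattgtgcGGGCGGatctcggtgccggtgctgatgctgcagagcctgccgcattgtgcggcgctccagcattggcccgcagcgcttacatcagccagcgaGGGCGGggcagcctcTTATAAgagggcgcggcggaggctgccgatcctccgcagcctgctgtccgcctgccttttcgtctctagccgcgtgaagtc

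Ina: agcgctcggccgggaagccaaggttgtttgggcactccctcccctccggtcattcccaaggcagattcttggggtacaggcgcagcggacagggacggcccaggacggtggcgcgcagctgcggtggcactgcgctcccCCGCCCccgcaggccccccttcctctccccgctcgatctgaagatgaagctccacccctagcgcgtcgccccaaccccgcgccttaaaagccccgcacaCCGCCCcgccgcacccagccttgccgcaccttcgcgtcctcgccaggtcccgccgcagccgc

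The Tubb3 promoter holds TATAA starting 30 bases before the transcription start, overlapped by a match on the other strand, and 2 reverse matches to CCGCCC. The Ina promoter holds 2 forward matches to CCGCCC and no TATAA. Over 32851 promoters of the same length, 24.9% hold TATAA and 35.7% hold CCGCCC on either strand. The GC content was 67.3% for Tubb3 and 71.7% for Ina, against a median of 52.7%. Stmn3, the other member with a promoter here, held neither motif and had a GC content of 49.7%. A match is a description of the letters and not a measured binding site.

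Mapt (ENSMUSG00000018411.18, chromosome 11) encodes tau. In vehicle samples it was the steadiest of the 10, from 286 to 315 CPM, a coefficient of variation of 3.93%. AM6545 samples spread more widely, with 321 CPM in A, 390 in B, 324 in C and 268 in E, the last below every vehicle sample and the other 3 above them all. Its difference on the log2 scale was 0.11 (SE 0.11, edgeR quasi-likelihood adjusted p = 0.768; exact permutation p = 0.429), a fold of 1.08 with a 95% interval of 0.919 to 1.27. Mapt shared no 31-base word with another gene.

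Each of the 3 stathmins had a lower mean in AM6545 samples and its highest level in vehicle C. Stmn1 (ENSMUSG00000028832.12, chromosome 4) encodes the founding member, a cytosolic protein most abundant in young neurons. It was at 573 CPM in AM6545 A, 558 in B, 468 in C and 464 in E, and at 563 CPM in vehicle A, 463 in B, 702 in C, 570 in D and 560 in E. Vehicle C was the highest of all samples and vehicle B the lowest. For Stmn1 the difference on the log2 scale was -0.15 (SE 0.13, edgeR quasi-likelihood adjusted p = 0.740; exact permutation p = 0.444). Markers of immature granule neurons summed to 71.4 to 84.9 CPM in AM6545 samples and 76.0 to 93.0 CPM in vehicle samples, and their part in the stathmin values was not tested.

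Stmn2 (ENSMUSG00000027500.11, chromosome 3) encodes a palmitoylated stathmin of axons and growth cones. It was at 312 CPM in AM6545 A, 290 in B, 325 in C and 289 in E, against 299 in vehicle A, 298 in B, 416 in C, 319 in D and 345 in E. All 4 AM6545 samples lay below the vehicle mean of 336 ± 49.1 CPM (SD, n = 5), yet they overlapped the lower vehicle samples. Stmn3 (ENSMUSG00000027581.13, chromosome 2), a stathmin of the nervous system, averaged 484 ± 69.3 CPM with AM6545 (SD, n = 4), against 513 ± 53.5 CPM with vehicle (SD, n = 5), with vehicle C again highest at 602 CPM and AM6545 E lowest at 387 CPM. The log2 fold changes were -0.14 for Stmn2 (SE 0.11, edgeR quasi-likelihood adjusted p = 0.717) and -0.08 for Stmn3 (SE 0.12, adjusted p = 0.854). As folds, the 95% intervals were 0.748 to 1.09 for Stmn1, 0.766 to 1.07 for Stmn2 and 0.789 to 1.13 for Stmn3.

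The stathmin transcripts are related in sequence, which bears on how well their counts separate. The longest run of bases that Stmn1 and Stmn2 share exactly is 43 bases in exon 4 of each, within the coding part. It lies at chr4:134472879-134472921 for Stmn1 and chr3:8554867-8554909 for Stmn2, on the plus strand of each (GRCm38, GENCODE M21), and reads 5′ to 3′ as follows.

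Stmn1 and Stmn2: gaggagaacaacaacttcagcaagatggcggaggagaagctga

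That stretch makes up 0.636% of the 31-base words of Stmn2. Stmn3 shared no 31-base word with another gene. Stmn1 is the least certain of the 3, since 26.9% of its 31-base words recur in the gene model Gm11223, for which no count was used here.

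Gap43 (ENSMUSG00000047261.10, chromosome 16), the growth-associated gene, followed the stathmins. It was at 192 CPM in AM6545 A, 206 in B, 170 in C and 168 in E, and at 180 CPM in vehicle A, 177 in B, 256 in C, 195 in D and 206 in E. Vehicle C was the highest sample, well above the rest, and AM6545 C and E were the lowest. Gap43 differed by -0.14 on the log2 scale (SE 0.12, edgeR quasi-likelihood adjusted p = 0.737; exact permutation p = 0.333), a fold of 0.907 with a 95% interval of 0.760 to 1.08. No 31-base word of Gap43 was shared with another gene.

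**Figure D2:**
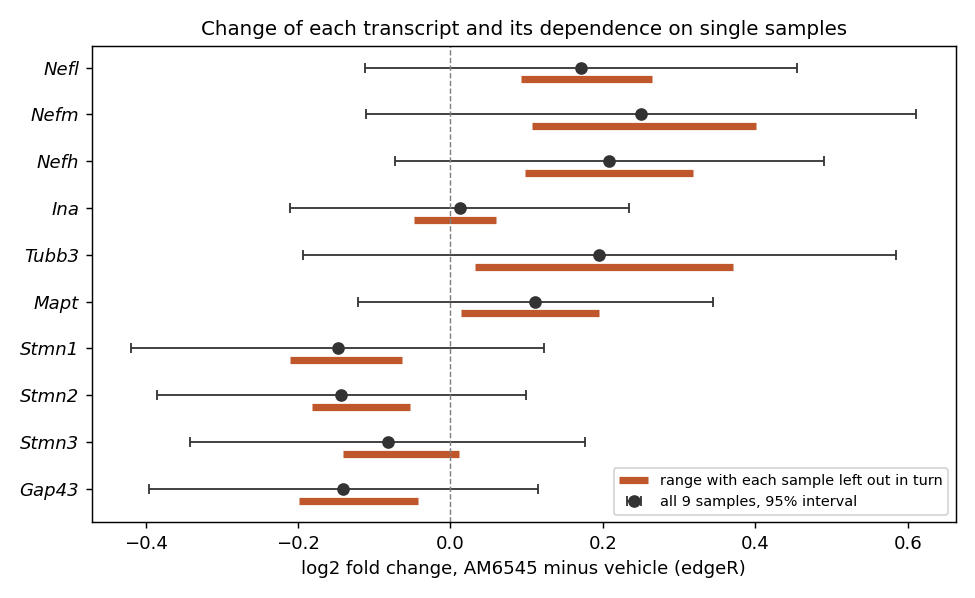
Log2 fold change of AM6545 minus vehicle (x axis) for each of the 10 genes (y axis), with the 95% interval from all 9 samples (black) and the range of values when each sample is left out in turn (orange). Every interval includes 0, and the leave-out ranges of Ina and Stmn3 cross 0.

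Single samples moved these values by more than 1.5 times. Mapt depended most on AM6545 B, at 0.01 without it, and was at 0.19 without AM6545 E. Without AM6545 E the log2 fold change was 0.26 for Nefl, 0.40 for Nefm, 0.32 for Nefh, 0.37 for Tubb3 and 0.01 for Stmn3, whose sign turned, and 3 of the 10 genes (Nefm, Nefh and Tubb3) reached an unadjusted p under 0.05, with adjusted p of 0.360 for Nefm and Nefh and 0.361 for Tubb3 (edgeR quasi-likelihood). Without vehicle A it was 0.09 for Nefl, 0.15 for Nefm and 0.10 for Tubb3. Without AM6545 B it was 0.11 for Nefl, 0.11 for Nefm, 0.10 for Nefh, 0.03 for Tubb3 and -0.14 for Stmn3. On the other side, without vehicle C the values were -0.06 for Stmn1, -0.05 for Stmn2, -0.02 for Stmn3 and -0.04 for Gap43. Nefl, Nefm, Nefh, Tubb3 and Mapt kept a positive sign, and Stmn1, Stmn2 and Gap43 a negative one, with each of the 9 samples left out in turn.

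Samples were high or low for several members at once. In log2 CPM relative to each gene's mean over the 9 samples, vehicle A was at -0.43 for Nefl, -0.58 for Nefm, -0.37 for Nefh, -0.17 for Ina and -0.51 for Tubb3, but at 0.05 for Stmn1 and -0.10 for Gap43. Vehicle C was at 0.37 for Stmn1, 0.38 for Stmn2, 0.28 for Stmn3 and 0.41 for Gap43, but at 0.03 for Nefl and -0.01 for Nefm. AM6545 E was below the mean for all 10 genes, from -0.14 for Ina to -0.56 for Tubb3, and was the farthest sample for Stmn3 at -0.36. Vehicle A was thus lowest in the neurofilament triplet and Ina and low in Tubb3, vehicle C was high in the stathmins and Gap43, and AM6545 E was low throughout. With each group's mean removed, Pearson's r over the 9 samples was 0.958 for Nefl with Nefm and 0.879 for Nefl with Nefh, but 0.682 and 0.397 without vehicle A and AM6545 E. It was 0.652 for Stmn1 with Stmn2, and -0.095 without vehicle B and C. Some pairs of unlike proteins were high as well, at 0.881 for Ina with Gap43 (0.769 without AM6545 B and vehicle C). Nefh with Stmn3 was at 0.797 (0.536 without AM6545 E and vehicle A). Other unlike pairs were low, at 0.229 for Nefl with Stmn1 and 0.232 for Nefm with Stmn2. These values therefore do not divide the 10 genes cleanly by kind. All of them share the same libraries, and they are given as a description.

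**Figure D3:**
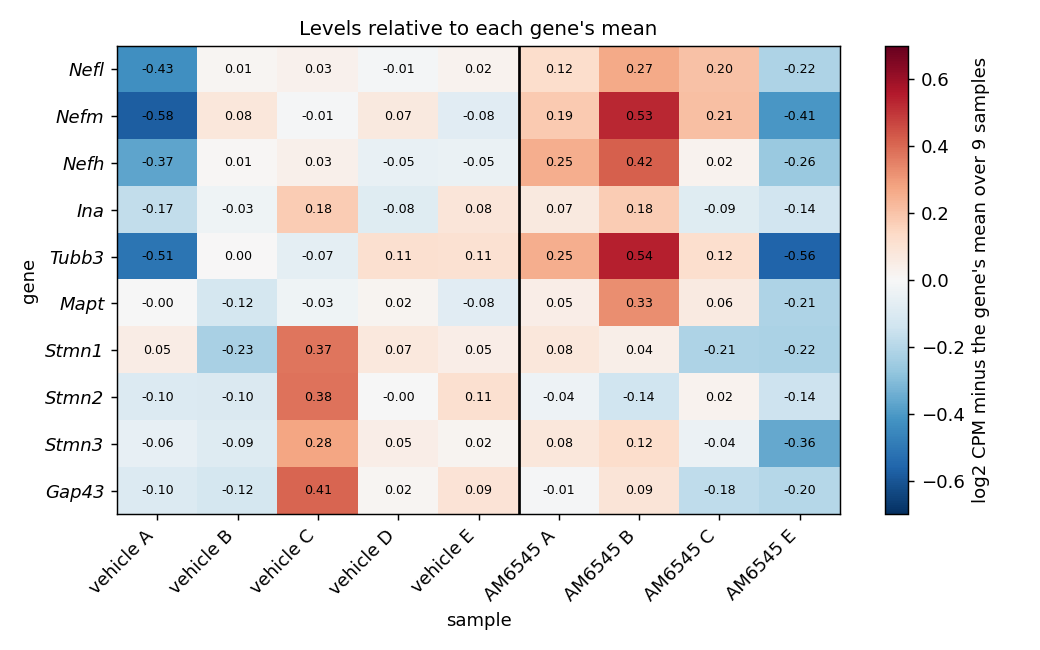
Log2 CPM of the 10 genes (rows) in the 9 samples (columns) minus each gene's mean over the samples, with the value in each cell and a line between vehicle and AM6545 samples. Vehicle A is low for Nefl, Nefm, Nefh and Tubb3, vehicle C is high for the stathmins and Gap43, and AM6545 E is below 0 in every row.

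Ratios between members set them side by side within each sample. Of 14 pairs examined, the groups overlapped in all 14, and no test was made of these ratios. Nefm to Nefl was at a mean log2 ratio of -2.58 ± 0.19 with AM6545 (SD, n = 4), against -2.64 ± 0.10 with vehicle (SD, n = 5), and Nefh to Nefl at -4.51 ± 0.16 and -4.54 ± 0.05. The subunit mix of the triplet therefore differed between groups by less than its spread. Gap43 to Stmn2 was nearly fixed in vehicle samples, from -0.75 to -0.70, and wider in AM6545 samples, from -0.93 to -0.49. Nefl to Stmn1, a filament subunit against a stathmin, was at 0.85 to 1.25 in AM6545 samples and 0.35 to 1.08 in vehicle samples, a difference of the means of 0.31 that ran from 0.23 to 0.41 with each sample left out. Nefm to Stmn2 differed by 0.37, from -1.18 ± 0.29 in vehicle (SD, n = 5) to -0.81 ± 0.38 in AM6545 samples (SD, n = 4), and by 0.21 without AM6545 B. In AM6545 samples (n = 4) the SD was 0.19 for Nefm to Nefl, for Stmn2 to Stmn1 and for Nefl to Stmn1 alike. In vehicle samples (n = 5) it was 0.10 for Nefm to Nefl and 0.11 for Stmn2 to Stmn1, but 0.285 for Nefl to Stmn1.

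Oligodendrocyte markers varied over the same samples. Their summed level was 15340 CPM in AM6545 A, 13220 in B, 17030 in C and 18970 in E, and 22650 in vehicle A, 16160 in B, 10900 in C, 18130 in D and 15120 in E. The samples with the most of it, vehicle A and AM6545 E, were those with the least Nefm, and AM6545 B, with the second lowest marker level, had the most. Vehicle D, close to AM6545 E in marker level, had 166 CPM of Nefm, against 119 CPM in AM6545 E. Vehicle C, with the lowest marker level, had the most Stmn1 but a Nefm level inside the range of the other vehicle samples. The marker ranges of the groups overlapped, all 8 markers were counted in every sample, and 0 of the 8 had an unadjusted p under 0.05. Choroid plexus markers, at 60.5 to 930 CPM in AM6545 samples, were at 3997 CPM in vehicle A, 307 in B, 47.6 in C, 4329 in D and 2137 in E, so that the groups overlapped. Their mean was 556 CPM with AM6545 and 2163 CPM with vehicle. Of these 6 markers 1 had an unadjusted p under 0.05, as did 2 of 5 ependymal markers, where 7.21% of all genes tested did. Vehicle D, the highest in choroid plexus markers, was not low in neurofilaments. The part of other cells' RNA in the values of the 10 genes was not tested.

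**Figure D4:**
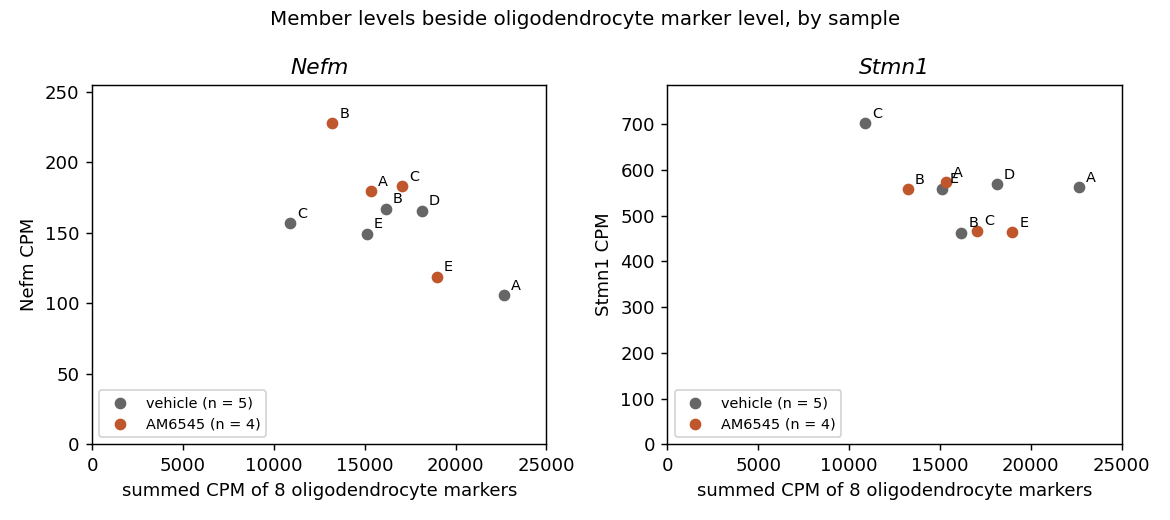
CPM of Nefm (left) and Stmn1 (right) on the y axis against the summed CPM of 8 oligodendrocyte markers on the x axis, 1 point a sample, coloured by group and lettered by replicate. Vehicle A and AM6545 E, at 22650 and 18970 CPM of markers, have the lowest Nefm levels. Vehicle D, at 18130 CPM of markers, has 166 CPM of Nefm.

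Levels of different genes were compared per length, as CPM per kilobase of the median protein-coding transcript in M21. In vehicle samples Stmn1 led with 646 ± 96.4, followed by Stmn3 with 451 ± 47.1, Nefl with 274 ± 34.4 and Mapt with 209 ± 8.21 CPM per kilobase (SD, n = 5 each). Stmn2 was at 162 ± 23.7, Gap43 at 143 ± 22.5, Tubb3 at 116 ± 18.7, Ina at 70.3 ± 6.75, Nefm at 42.5 ± 7.18 and Nefh at 9.94 ± 1.05 (SD, n = 5 each). Stmn1 and Stmn3 were thus the most abundant per length, with the stathmin Stmn2 below Nefl and Mapt, and the light subunit stood far above its partners: per length, Nefm had 0.155 and Nefh 0.0364 of the Nefl level in vehicle. Most neighbours in this order kept it in all 9 samples. The exceptions were Nefl above Mapt and Stmn2 above Gap43, each in 8 of 9 samples, and Gap43 above Tubb3, in 6 of 9. In AM6545 samples only the order of Gap43 (130 ± 12.7 CPM per kilobase, SD, n = 4) and Tubb3 (133 ± 39.1) was exchanged. The place of Mapt rests on the transcript chosen, since with its longest coding transcript of 5253 bases in place of the median of 1444.5 bases it was at 57.4 CPM per kilobase, eighth in the order.

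Transcript length varied among the members, with medians of 3380 bases for Nefl, 3507 for Nefm and 3994 for Nefh. Medians were 884.5 bases for Stmn1, 2073 for Stmn2, 1136 for Stmn3 and 1420 for Gap43. Tubb3, with a median of 1322 bases, had the sign of the neurofilaments. Mapt had that sign too, but its length depends on the transcript chosen, with a median of 1444.5 and a longest of 5253 bases. With each sample's trend of counts with transcript length removed, the log2 fold changes were 0.13 for Nefl, 0.21 for Nefm, 0.17 for Nefh and 0.22 for Tubb3, and -0.08 for Stmn1, -0.15 for Stmn2, -0.04 for Stmn3 and -0.11 for Gap43. The signs of these 8 were the same as before, and 0 passed an adjusted p of 0.05.

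The wider axonal cytoskeleton was read through 7 lists, in which 0 genes passed an adjusted p of 0.05 in either direction, as for all 14512 genes tested. The spectrin, ankyrin and initial segment list joins genes of the membrane skeleton beneath the axon with other initial segment genes. In it 14 of 14 genes had a higher mean in AM6545 samples. Its median log2 fold change was 0.21, against -0.01 over all genes tested, where 6996 were higher and 7516 lower. That count was again 14 without vehicle A, without AM6545 B and with the length trend removed. The median was 0.14 without AM6545 B and 0.18 with the length trend removed. Genes of a list were read from the same 9 libraries, so their signs are not separate observations. Sptbn4, the spectrin of the axon initial segment, averaged 32.8 ± 7.39 CPM with AM6545 (SD, n = 4), against 25.1 ± 5.25 CPM with vehicle (SD, n = 5), and was the 1 gene of the list with an unadjusted p under 0.05. Sptan1, the alpha spectrin, averaged 264 ± 53.8 CPM with AM6545 (SD, n = 4), against 214 ± 31.2 CPM with vehicle (SD, n = 5). The groups overlapped for each of the 14 genes.

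Other tubulins shared the sign of Tubb3 in 12 of 13 cases, with a median difference of 0.17 on the log2 scale that was 0.09 without vehicle A, 0.08 without AM6545 B and 0.29 without AM6545 E. Tubb2a averaged 1610 ± 440 CPM with AM6545 (SD, n = 4), against 1336 ± 223 CPM with vehicle (SD, n = 5), and Tubb4a at 719 ± 175 and 599 ± 98.4 CPM. The exception, Tuba1c, was scarce and variable, at 5.66 ± 1.63 CPM (SD, n = 4) and 13.6 ± 10.8 CPM (SD, n = 5). It differed by -1.26 on the log2 scale (SE 0.56, edgeR quasi-likelihood adjusted p = 0.653). The value ran from -1.53 to -0.84 with each sample left out. Tuba1c was the 1 gene of this list with an unadjusted p under 0.05, where 7.21% of all genes tested had one. Counts of Tubb2a and Tuba1c are uncertain, since 56.4% and 63.9% of their 31-base words recur in other genes, mostly tubulins and their pseudogenes. On the same strand, the share was 77.0% for Tuba1a, 75.4% for Tuba1b, 64.6% for Tubb4b and 45.9% for Tubb2b. The 12 genes of like sign are therefore not 12 separate counts. Among microtubule-associated proteins 17 of 23 were higher, with a median of 0.07 that was 0.04 without AM6545 C. Of these 23, 5 had an unadjusted p under 0.05, all higher, where 7.21% of all genes tested had one, 440 higher and 607 lower.

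Map1b, which encodes a microtubule-binding protein of growing axons and is a long-studied target of FMRP, the protein that Fmr1 encodes, was the only gene of the 7 lists whose groups did not overlap. It was at 2232 CPM in AM6545 A, 2328 in B, 1942 in C and 2030 in E, against 1590 in vehicle A, 1799 in B, 1840 in C, 1912 in D and 1628 in E. The lowest AM6545 sample lay just above the highest vehicle sample. Map1b did not pass the threshold, at a difference of 0.28 on the log2 scale (SE 0.11; edgeR quasi-likelihood adjusted p = 0.653, and 0.361 to 0.920 over the alternatives run). Its value ran from 0.24 to 0.33 with each sample left out. Such separation was found for 1.45% of all genes tested. The 7 lists held 9 to 26 tested genes each, so 1 separated gene among them does not exceed that share. Map1s had a log2 fold change of 0.48 (SE 0.18), while the lower genes Mapre1 and Map6d1 were at -0.10 and -0.05.

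Motors and adaptors of axonal transport were higher in 17 of 25 genes, with a median of 0.12 that was 0.06 without AM6545 B and 0.08 without vehicle D. Dctn1, the large dynactin subunit, was at 0.39 (SE 0.16) and Mapk8ip3, a kinesin adaptor, at 0.39 (SE 0.16), whereas the small dynein subunits Dynlrb1 and Dynll1 were at -0.37 (SE 0.13) and -0.25 (SE 0.13). The list drawn for growth cone and growth-associated proteins had 11 of 17 tested genes higher and a median of 0.12. That median was 0.02 without AM6545 B, 0.07 without AM6545 C and 0.08 without vehicle C. The adhesion molecule L1cam was at 0.34 (SE 0.13), Crmp1 at 0.32 (SE 0.16), Nrgn at -0.17 (SE 0.12) and Marcks at -0.15 (SE 0.10). Sprr1a, also of this list, was under the count filter. Other intermediate filaments and linkers had 7 of 9 genes higher, with Plec at 0.23 (SE 0.11), Dst at 0.14 (SE 0.11) and Prph at -0.16 (SE 0.33).

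Kinases and phosphatases that act on tau, neurofilaments or stathmins were evenly divided, 13 higher and 13 lower, with a median log2 fold change of -0.0049 that lay between -0.03 and 0.06 with single samples left out. Mark2, a kinase of microtubule-associated proteins, was at 0.26 (SE 0.12) and Cdk5r2, an activator of Cdk5, at 0.24 (SE 0.12). Mapk8, which encodes the stress kinase JNK1, was at -0.25 (SE 0.10) and the calcineurin subunit Ppp3cb at -0.18 (SE 0.12).

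**Figure D5:**
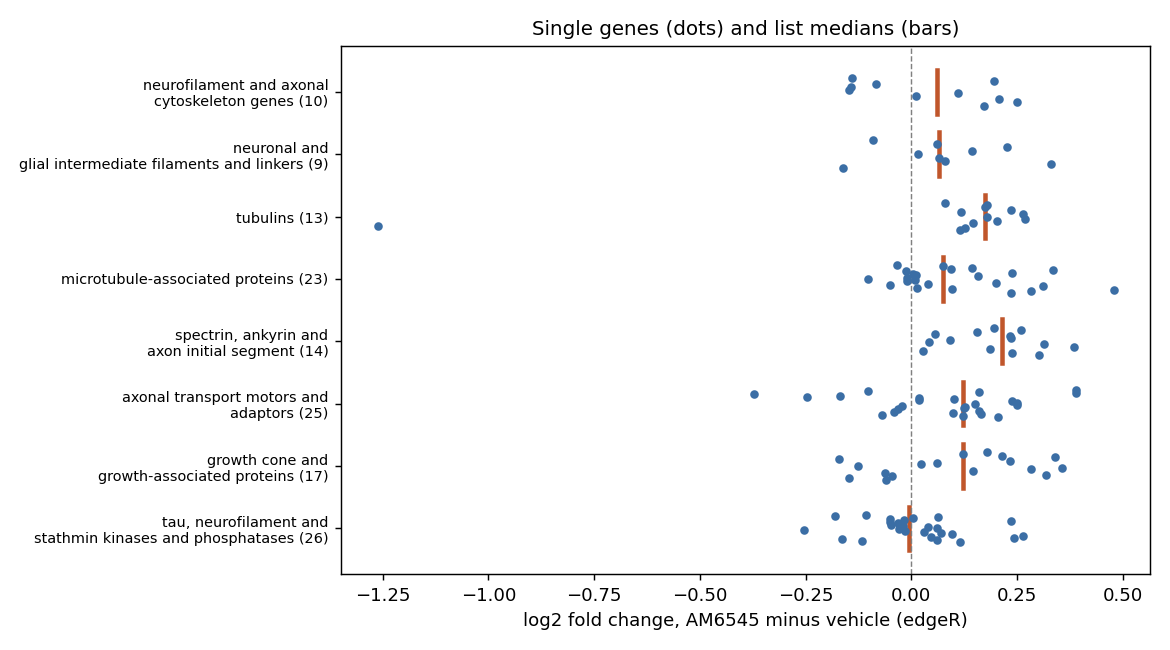
Log2 fold change of AM6545 minus vehicle (x axis) for the tested genes of 8 lists (rows, number of genes in brackets), with dots for single genes and bars for medians. The spectrin, ankyrin and initial segment list lies wholly above 0 and the kinase and phosphatase list is centred on 0. The 10 neurofilament and axonal cytoskeleton genes lie on either side of 0.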

How the data were processed

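The authors deposited 1 table of estimated counts per Ensembl gene, with 1 column for each of the 9 samples; values are not scaled between samples and not all whole. The labels' protocols name the SMARTer Ultra Low Input kit and an Illumina NovaSeq instrument. Per the submitters' processing notes, Salmon 1.3 and DESeq2 1.30 and the builds GRCm39 and mm10 were used, with no role given; annotation and strand setting are not given in the sources used here. Symbols were matched by identifier without version for 22155 of 22255 identifiers. Counts were rounded, filtered with filterByExpr (14512 genes), TMM-scaled and tested with edgeR 4.0.16 (R 4.3.3, quasi-likelihood F-test, Benjamini-Hochberg adjustment over all genes tested, threshold 0.05); the code was tested on simulated data. Standard errors are the absolute log2 fold change over the square root of F, and 95% intervals use the test's t quantile. Single genes were also compared by exact permutation (scipy 1.17.1) of log2 CPM with a prior count of 2. Transcript lengths, strands and 31-base words come from GENCODE M21. Of the identifiers, 22144 carry another version than M21, so these values may differ in the annotation that was counted. Alternatives were other size factors, filters, DESeq2 1.42.0, limma 3.58.1 (voom), the letter of the title as a block, robust edgeR, samples left out, removal of mitochondrially encoded genes and removal of length trends. No label says that the letters pair samples. Deviations of same-letter samples correlated at -0.0070, 0.066, 0.32 and 0.018, within the -0.316 to 0.356 of unlike letters. So few pairs cannot decide whether the letters pair samples. The members, lists and tests were chosen with earlier results of these data known. Genes named are all 10 members and, from each list, up to 2 genes with the smallest unadjusted p in each direction (1 of them is not reported here), plus the 3 genes most like Nefl, Stmn1, Gap43 and the neurofilament mean by Pearson correlation. The Tubb3 and Ina promoters and the parvalbumin markers named were chosen after their values were seen.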

Additional observations from a re-analysis of the deposited data

Results flagged for a closer look

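A sample far from the rest of its group was found in 4 of 48 groups of values examined (10 genes and 14 ratios, in each treatment group), by Dixon's ratio of the gap to the group's range; about 1 in 20 groups is singled out by chance, and these 4 come from genes that vary together. All 4 were vehicle A, on the low side. Nefl was at 719 CPM there, with the other vehicle samples at 961 to 988 CPM (ratio 0.912, against a critical value of 0.710 for 5 samples). Nefm was at 106 CPM against 150 to 167 CPM (ratio 0.755), Nefh at 32.4 against 40.5 to 42.9 CPM (ratio 0.790) and Tubb3 at 112 against 153 to 172 CPM (ratio 0.717). Vehicle A had the highest oligodendrocyte marker level of the 9 samples, 22650 CPM, and the highest share of mitochondrially encoded counts, 7.90%; their part in the low values was not tested.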

How the results depend on the processing

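The count of the 10 genes with an unadjusted p under 0.05 was 0 with all samples, 2 with limma-voom sample weights, 3 with vehicle A and AM6545 E both left out, and 0 to 3 with each sample left out in turn; with none of these settings did a member pass an adjusted p of 0.05. Over all genes, the count past the threshold was 0, and 0 to 1 with single samples left out (1 without AM6545 A); the count at an unadjusted p under 0.05 was 1047, 1823 with sample weights, 496 without vehicle A and 1848 without AM6545 E. Ina changed sign with the letter as a replicate block (-0.0082), with the length trend removed (-0.0265) and over samples left out (-0.048 to 0.0596). Stmn3 ran from -0.14 to 0.0114 over samples left out. The other 8 members kept their sign under every alternative run. With the letter as a replicate block (A, B, C and E) Nefm was at 0.28 and Stmn1 at -0.14, and the block changed no call. Whether the letters pair samples is not known from the labels, and the few same-letter correlations cannot decide it.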

Other observations

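Genes with the pattern most like that of the members over the 9 samples were read after each group's mean was removed, among 9474 genes with a mean of at least 10 CPM; this describes likeness over 9 libraries that share low and high samples, and no test was made. For the mean of Nefl, Nefm, Nefh and Ina these were Magee1, Ap2b1 (a subunit of the clathrin adaptor AP2) and Bcat1 (a cytosolic branched-chain aminotransferase), with Pearson r of 0.995, 0.992 and 0.991 (0.978, 0.935 and 0.936 without the 2 samples farthest from the median). Magee1 had a log2 fold change of 0.30, Ap2b1 of 0.28 and Bcat1 of 0.10, each with an adjusted p of 0.653 or more (edgeR quasi-likelihood). For Nefl alone they were Anxa7, an annexin, Kif1bp, a kinesin-binding protein, and Ppid, a cyclophilin. For Stmn1 they were 1700021F05Rik, Mrpl40, a mitochondrial ribosomal protein, and Tigd2. For Gap43 they were Cep170, Gcc2 and Jakmip2, which encode centrosomal, Golgi and microtubule-associated coiled-coil proteins.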
